A study of Homo sapiens with 36 samples.

Results

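The first 3 days after transient plasma membrane damage were examined in 8 small RNA libraries of 36 in the series. They were chosen by their treatment label alone: the 6 PMD-Sen libraries collected on D1, D2 and D3, with 2 replicates a day, and the 2 Ctrl libraries. All cells were WI-38, a line of normal human lung fibroblasts, and all 1508 listed mature miRNAs were taken. PMD-Sen cells were exposed for a day to SDS, a detergent that injures the plasma membrane, then washed and returned to DMEM. D1, D2 and D3 count the days since washout, D0 being the end of the exposure. Ctrl cells were proliferating and untreated. For comparison, DDR-Sen cells had received doxorubicin (DXR), a drug that breaks DNA, for a day and were washed and cultured in the same way. The treated cells are named after the senescent state that they reach later in the 16-day course, and whether they had stopped dividing by D1 to D3 was not measured in these libraries. The labels call the replicates biological without saying whether they were separate cultures, so p-values here measure the spread between libraries, which may be technical.

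A miRNA is a short RNA that guides Argonaute proteins to mRNAs and lowers their stability or translation. Its seed, bases 2 to 8, pairs with the target, so miRNAs with the same seed share many targets. Each hairpin precursor can give a 5p and a 3p arm, and neighbouring hairpins are often cut from 1 primary transcript. Proliferating fibroblasts make much of the E2F- and MYC-driven miR-17 clusters, while the p53-induced miR-34 family is tied to growth arrest.

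The 8 libraries held between 150594 and 562569 counts, and the 10 most abundant miRNAs took 48.7% to 53.5% of each. Of the 984 miRNAs with a count in these libraries, many lay near 0. The 360 that passed the low-count filter held at least 99.8% of every library. Replicates of 1 day correlated at r of 0.952 to 0.986 in log2 CPM (counts scaled to the size of the library) but differed by more than counting error, with a chi-square of 13.5 to 37.8 per degree of freedom. The summed CPM of 8 fibroblast markers was 23148 and 23963 in Ctrl and 16541 to 21017 in the early PMD-Sen libraries, far above the markers of other cells in all 8, although miR-10b-5p and miR-196a-5p had at most 8 counts. Markers of other cells were scarce in every library: epithelial 28.6 to 163 CPM with miR-141-3p and miR-205-5p at 0, blood 175 to 509 CPM with miR-142-5p and miR-223-3p at 0, endothelial 42.9 to 128 CPM, and liver and muscle 22.9 to 270 CPM, in which miR-122-5p was the main member. In bulk RNA, fewer cells of a type and less RNA per cell cannot be told apart.

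The mature sequences of the miRNAs on which the results turn are given first, because a common seed shows which of them share many targets. RefSeq on GRCh38.p14 held a sequence for 329 of the 360 tested miRNAs and for 10 of the 10 that differed from Ctrl. Capitals mark the seed. The 5 miRNAs that were lower in early PMD-Sen all lie on chromosome 7.
miR-93-5p: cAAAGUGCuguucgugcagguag
miR-25-3p: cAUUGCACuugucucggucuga
miR-490-3p: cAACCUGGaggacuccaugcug
miR-335-3p: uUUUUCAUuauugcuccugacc
miR-671-5p: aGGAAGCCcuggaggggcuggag
miR-93-5p (chr7:100093815-100093837, minus strand) and miR-25-3p (chr7:100093571-100093592, minus strand) come from the miR-106b-25 cluster, and the MIR25 hairpin lies in an intron of MCM7, a DNA replication licensing gene. miR-335-3p (chr7:130496162-130496183, plus strand) lies in an intron of the imprinted gene MEST. miR-490-3p (chr7:136903242-136903263, plus strand) lies in an intron of CHRM2, and miR-671-5p (chr7:151238449-151238471, plus strand) in an exon of CHPF2. Chromosome 7 carried 22 of the 329 tested miRNAs with a position, 6.69%. Of these, 16 had a negative and 6 a positive log2 fold change, with a median of −0.40. The negative ones include the 5 called miRNAs and the tested other arms and neighbours of their hairpins. The counts therefore give no separate view of the rest of the chromosome.

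The 5 miRNAs that were higher in early PMD-Sen share no seed with each other and lie in different transcripts.
miR-31-5p: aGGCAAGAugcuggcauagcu
miR-181a-5p: aACAUUCAacgcugucggugagu
miR-337-3p: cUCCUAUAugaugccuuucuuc
miR-374b-5p: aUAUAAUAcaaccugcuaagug
miR-664a-3p: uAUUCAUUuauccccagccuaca
miR-31-5p (chr9:21512158-21512178, minus strand) lies in an intron of the long noncoding RNA MIR31HG. miR-181a-5p is made from 2 hairpins, MIR181A1 (chr1:198859108-198859130, minus strand) and MIR181A2 (chr9:124692480-124692502, plus strand). miR-337-3p (chr14:100874553-100874574, plus strand) belongs to the imprinted 14q32 cluster, and miR-374b-5p (chrX:74218587-74218608, minus strand) lies in an exon of FTX, a noncoding RNA of the X-inactivation centre. miR-664a-3p (chr1:220200549-220200571, minus strand) lies in an intron of RAB3GAP2 and inside the small nucleolar RNA SNORA36B, so that fragments of that RNA could be counted under its name.

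In PMD-Sen D1 to D3 against Ctrl, 10 miRNAs differed at an adjusted p under 0.05 in edgeR (quasi-likelihood test, Benjamini-Hochberg adjustment), 2.78% of the 360 tested. Of these, 5 were higher (1.39%) and 5 lower (1.39%). At the thresholds used in the study, an unadjusted p under 0.05 and an absolute log2 fold change over 1, 13 miRNAs (3.61%) passed, and 49 (13.6%) had an unadjusted p under 0.05 alone. All 6 treated libraries lay above both Ctrl libraries for 29 miRNAs (8.06%) and below both for 25 (6.94%), and 9 of the 10 called miRNAs were among them, miR-335-3p being the exception. Scaling by DESeq2's size factors gave 13 calls, 4 higher and 9 lower, and so did scaling by total counts, so the even split of directions depended on the scaling. The median log2 fold change of all tested miRNAs was 0.02.

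**Figure D1:**
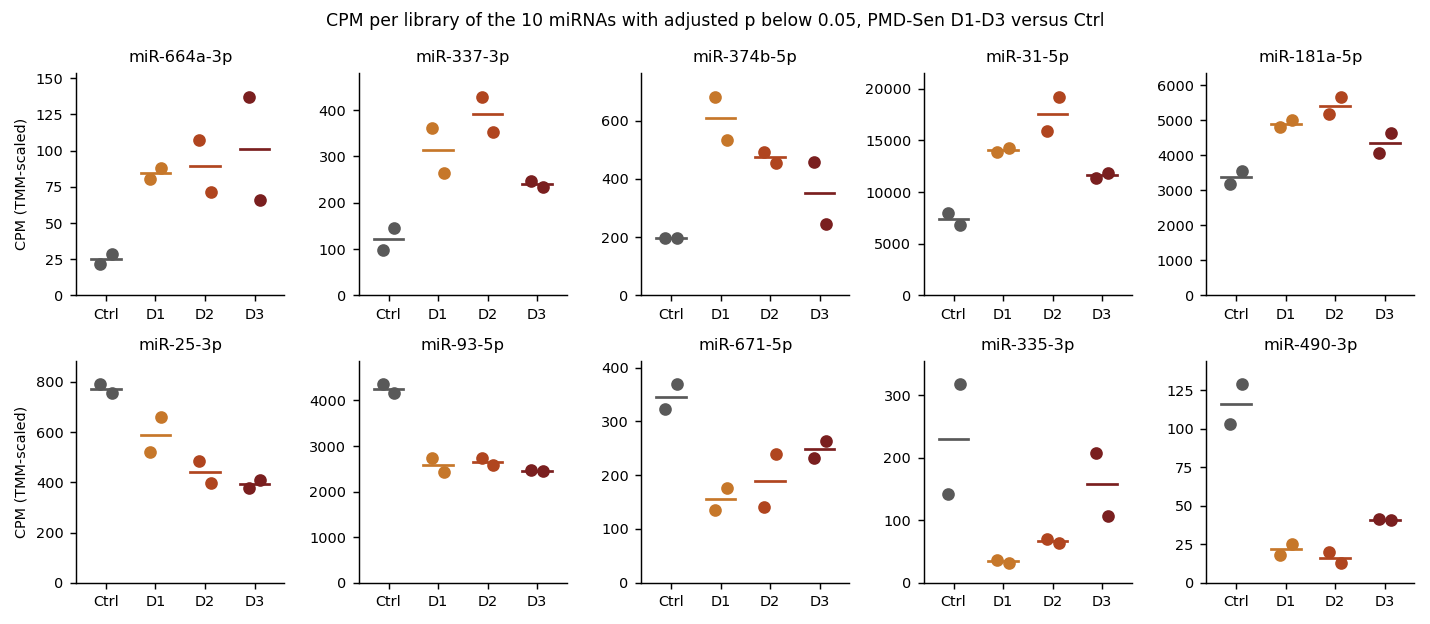
CPM per library (vertical axes, each from 0) of the 10 miRNAs with an adjusted p under 0.05, for Ctrl and PMD-Sen D1, D2 and D3, with a point for each of the 2 libraries of a group. The 6 treated libraries lie on 1 side of both Ctrl libraries for 9 of the 10, and for miR-335-3p D3 replicate 1, at 208 CPM, overlaps Ctrl.

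**Figure D2:**
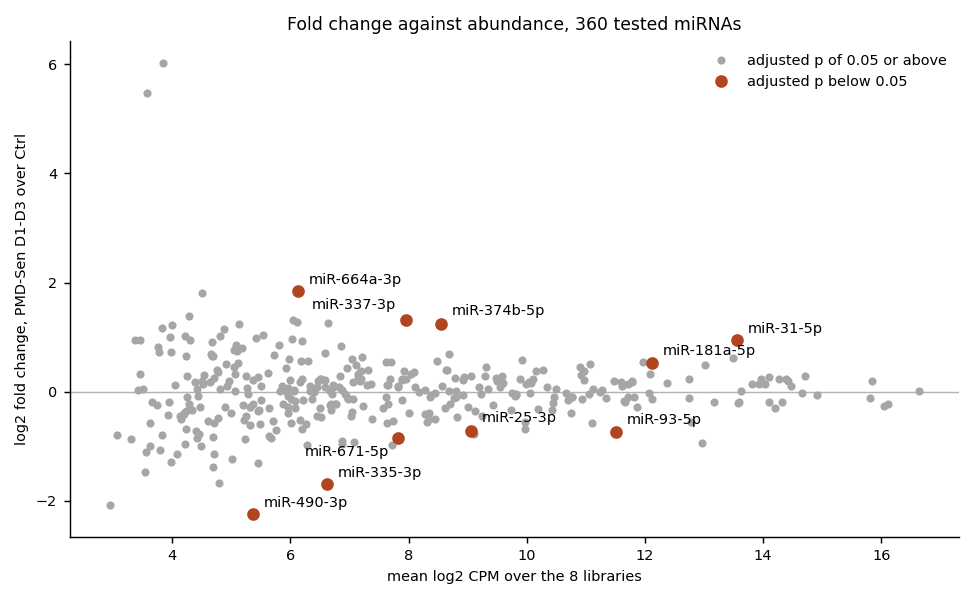
Log2 fold change of PMD-Sen D1 to D3 over Ctrl (vertical axis) against mean log2 CPM over the 8 libraries (horizontal axis) for the 360 tested miRNAs, a point each, with the 10 called miRNAs coloured and named. The 2 points near a log2 fold change of 6 are miR-1246 and miR-3180-5p, which had 0 counts in both Ctrl libraries.

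Among the called lower miRNAs, the most abundant was miR-93-5p, a member of the miR-17 family that restrains the cell cycle inhibitor p21. It had 4353 and 4162 CPM in the Ctrl libraries, and in the early PMD-Sen libraries 2731 and 2439 CPM on D1, 2727 and 2577 on D2, and 2467 and 2443 on D3. The 6 treated libraries were close to each other and did not approach Ctrl. The mean went from 4257 ± 135 CPM (SD, n = 2) to 2564 ± 138 CPM (SD, n = 6), a log2 fold change of −0.73 (SE 0.13, edgeR adjusted p = 0.000623). This call was made under all 16 alternative settings. miR-25-3p, from the same cluster, had 791 and 755 CPM in Ctrl, 519.9 and 660.02 on D1, 483 and 399 on D2, and 376 and 411 on D3. It was lowest on D3 and did not overlap Ctrl, and the log2 fold change of D1 to D3 over Ctrl was −0.72 (SE 0.20, edgeR adjusted p = 0.04). Its call was made under 6 of 16 settings and was lost on leaving out any 1 of 7 of the 8 libraries, with adjusted p of 0.0562 to 0.366 and log2 fold changes of −0.78 to −0.66.

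Beside miR-25-3p, the other miRNAs from hairpins around miR-93-5p and those with its seed also had negative log2 fold changes but did not pass the test. The third hairpin of the cluster gives miR-106b-5p, which has the seed of miR-93-5p, as does miR-17-5p of the miR-17-92 cluster.
miR-106b-5p: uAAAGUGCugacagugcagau
miR-17-5p: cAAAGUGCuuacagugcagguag
miR-92a-3p: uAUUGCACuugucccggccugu
miR-106b-5p had 223 and 226 CPM in Ctrl and 146, 37.7, 153, 113, 137 and 117 CPM from D1 replicate 1 to D3 replicate 2, all 6 below Ctrl, with a log2 fold change of −0.91 (SE 0.36, edgeR adjusted p = 0.21). The 4 tested miRNAs within 10 kb of miR-93-5p, miR-25-3p included, had log2 fold changes of −0.91 to −0.51, and the 3 with its seed −0.91 to −0.50. miR-92a-3p, which has the seed of miR-25-3p but lies in the miR-17-92 cluster, did not share the direction, at 0.10, and turned slightly negative on leaving out some single libraries. Of the 12 tested members of the list of miR-17 clusters, 11 had a negative and 1 a positive log2 fold change. Their median was −0.53 against 0.02 for all tested miRNAs, and miR-93-5p and miR-25-3p were the 2 that passed the test. The 11 against 1 was the same with DESeq2's size factors and with total counts. miR-92a-1-5p, from the same MIR92A1 hairpin as miR-92a-3p, was not on that list. Its log2 fold change was −1.30, and it did not pass the test (edgeR adjusted p = 0.24).

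The 3p arm of the miR-490 hairpin had the largest fall of the called miRNAs. It was measured at 103 and 129 CPM in Ctrl (24 and 45 counts), 18.3 and 25.1 on D1, 20.0 and 12.6 on D2, and 41.3 and 40.5 on D3, where the treated libraries had between 3 and 25 counts. D3 was higher than D1 and D2 but below both Ctrl libraries. The mean went from 116 ± 18.1 CPM (SD, n = 2) to 26.3 ± 12.0 CPM (SD, n = 6), with a log2 fold change of −2.24 (SE 0.35, edgeR adjusted p = 0.000183), and the call was made under all 16 settings. The other arm, miR-490-5p, had a log2 fold change of −0.85 and did not pass the test (edgeR adjusted p = 0.38).

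miR-335-3p, from the MEST intron, was measured at 142 and 317 CPM in Ctrl, 36.6 and 31.4 on D1, 70.1 and 63.1 on D2, and 208 and 106 on D3. All D1 and D2 values and that of D3 replicate 2 were below both Ctrl libraries, while D3 replicate 1 lay between the 2 Ctrl libraries, which themselves stood well apart. Over the 3 days it fell by 1.70 on the log2 scale (SE 0.35, edgeR adjusted p = 0.00279). This rested on Ctrl replicate 2, without which the log2 fold change was −0.999 and the adjusted p 0.734. The abundant arm miR-335-5p, at 674 ± 53.9 CPM in Ctrl (SD, n = 2) and 528 ± 127 CPM in early PMD-Sen (SD, n = 6), had a log2 fold change of −0.36 and was not called. miR-671-5p, which lies in the CHPF2 exon, had 322 and 369 CPM in Ctrl and 135, 176, 140.2, 239.6, 233 and 264 CPM from D1 replicate 1 to D3 replicate 2. All 6 were below Ctrl, with D1 the lowest day, and the log2 fold change was −0.85 (SE 0.22, edgeR adjusted p = 0.0338). Without Ctrl replicate 2 the adjusted p was 0.397, and it was also above the threshold without PMD-Sen D1 replicate 1.

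Among the higher miRNAs, miR-31-5p was by far the most abundant, and it is known in many cells as a regulator of migration and of integrin and RhoA mRNAs. It had 7962 and 6810.3 CPM in Ctrl, 13829 and 14263 on D1, 15941 and 19184 on D2, and 11405 and 11862 on D3. Every treated library was above both Ctrl libraries, and D2 was the highest day. The mean went from 7386 ± 815 CPM (SD, n = 2) to 14414 ± 2864 CPM (SD, n = 6), a log2 fold change of 0.94 (SE 0.21, edgeR adjusted p = 0.00651). Without Ctrl replicate 1 the adjusted p was 0.11, and without Ctrl replicate 2 it was 0.265. miR-181a-5p had 3197 and 3541 CPM in Ctrl and 4800.1, 4997, 5177, 5666, 4077 and 4639.9 CPM in the treated libraries in order of day. It was above Ctrl in all 6, with a log2 fold change of 0.53 (SE 0.15, edgeR adjusted p = 0.0454), and its call was lost on leaving out any 1 library (adjusted p 0.0595 to 0.563). The other miRNAs with its seed, miR-181b-5p, miR-181c-5p and miR-181d-5p, had log2 fold changes of 0.11, 0.52 and −0.22. Since reads that match several members of a family were split between them, values within the miR-181, let-7 and miR-30 families are less certain than the others.

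miR-337-3p had 98.8 and 146 CPM in Ctrl, 362 and 264 on D1, 428 and 353 on D2, and 248 and 233 on D3. The treated libraries lay above Ctrl on each day, with D2 the highest, and the log2 fold change was 1.32 (SE 0.27, edgeR adjusted p = 0.00279). The adjusted p was 0.271 without Ctrl replicate 1 and 0.0534 without Ctrl replicate 2. Its other arm, miR-337-5p, had a log2 fold change of 1.31 (edgeR adjusted p = 0.21). The 10 tested miRNAs within 10 kb of it were spread around 0, 7 positive and 3 negative, with a median of 0.05.

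miR-374b-5p had 198 and 197 CPM in Ctrl, 681 and 534 on D1, 493.4 and 453.97 on D2, and 457 and 246 on D3. It was highest on D1 and above Ctrl in all 6 libraries, with a log2 fold change of 1.24 (SE 0.25, edgeR adjusted p = 0.00279), which became an adjusted p of 0.179 without Ctrl replicate 1 and 0.163 without Ctrl replicate 2. miR-664a-3p had 21.5 and 28.6 CPM in Ctrl, from only 5 and 10 counts, and 80.6, 88.0, 108, 71.5, 137 and 65.9 CPM in the treated libraries in order of day. None of the 6 overlapped Ctrl, and the log2 fold change was 1.84 (SE 0.50, edgeR adjusted p = 0.04). Leaving out Ctrl replicate 1, Ctrl replicate 2, PMD-Sen D2 replicate 1 or PMD-Sen D3 replicate 1 took it past the threshold, with adjusted p up to 0.366. The other arm, miR-664a-5p, rested on few counts and had a log2 fold change of 1.02.

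Several miRNAs named by the rule on fold change and unadjusted p did not pass after adjustment. miR-1246, whose sequence overlaps a spliceosomal RNA, had 0 counts in both Ctrl libraries and 7, 3, 8, 5, 13 and 1 counts in the treated libraries. Against a floor of 3 counts over both Ctrl libraries, 5.15 CPM, the pooled 17.9 CPM was 3.47 times that floor. For miR-3180-5p, with 24 counts against 0, the ratio to the floor was 2.25. The floor covers counting error in Ctrl only, and the error of the treated libraries is left out, so these ratios are not lower bounds. The edgeR adjusted p was 0.0977 for miR-1246 and 0.183 for miR-3180-5p. miR-668-3p of the 14q32 cluster had 34.4 and 31.5 CPM in Ctrl and 62.6 to 105 CPM in the treated libraries, none of which overlapped Ctrl (log2 fold change 1.27, edgeR adjusted p = 0.18). In the other direction, miR-887-3p had 43.0 and 45.8 CPM in Ctrl and 12.6 to 28.1 CPM in the treated libraries, and miR-92a-1-5p had 90.2 and 65.8 CPM against 14.9 to 50.4 CPM. Both groups of treated libraries were wholly below Ctrl. miR-940 had 90.2 and 28.6 CPM in Ctrl and 10.0 to 21.5 CPM in 5 of the treated libraries, while D1 replicate 2 lay between the 2 Ctrl libraries, with a log2 fold change of −1.67 (edgeR adjusted p = 0.0576). This value moved to −0.749 without Ctrl replicate 1 (adjusted p = 0.769) and to −2.34 without Ctrl replicate 2 (adjusted p = 0.0304).

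Of 19 miRNA lists, 4 held a called member and 15 held none. Over all lists 5 of 210 different members were called, 2.38%, near the 2.78% of all tested miRNAs. In the 15 lists, with 113 tested members, edgeR called 0, with 16 (14.2%) at an unadjusted p under 0.05 against 13.6% of all tested, and DESeq2 called 3. Set against 1.39% of all tested in each direction, the lists with calls were the miR-17 clusters (2 of 12, both lower), the miR-181 family (1 of 6, higher), the 14q32 cluster (1 of 67, higher) and miRNAs that overlap structural RNA (1 of 12, higher). The 14q32 cluster, imprinted and made in fibroblasts, had 51 members with a positive and 16 with a negative log2 fold change and a median of 0.19. With DESeq2's size factors these were 46 and 21.

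Members of the lists tied to arrest, inflammation and stress lay close to Ctrl or did not pass. The p53-induced miR-34a-5p was at 352 and 352 CPM in Ctrl and at 337, 314, 396, 294, 398 and 339.6 CPM in the treated libraries, on both sides of Ctrl, with a log2 fold change of −0.02. In that list, with 6 members and a median of −0.29, miR-34c-5p had 25.8 and 57.2 CPM in Ctrl and 8.41 to 33.0 CPM in the treated libraries, which overlapped (log2 fold change −1.13, 95% interval −2.12 to −0.14, edgeR adjusted p = 0.26). miR-34b-3p, with 0 and 13 counts in Ctrl and 0 to 6 in the treated libraries, was at −1.47 (edgeR adjusted p = 0.394) and at 4.70 without Ctrl replicate 2. NF-kB-linked miRNAs, 10 members, had a median of −0.17, and within them miR-155-5p, a regulator of immune signalling, had 8830.3 and 9908 CPM in Ctrl and 4941 to 7819.6 CPM in the treated libraries. No treated library reached Ctrl, yet the adjusted p was 0.168 (edgeR, log2 fold change −0.55). The let-7 family and miR-98, 14 members that restrain growth, had a median of −0.06, the group of miR-15, miR-16, miR-424 and miR-503, 8 members, −0.39, the stress-linked list, 5 members, 0.12, and the miR-30 family, 8 members, −0.19.

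The remaining lists describe lineage and shared transcripts. The miR-199, miR-214, miR-143 and miR-145 genes, typical of mesenchymal cells, had a median of −0.31 over 9 members. Among them, miR-143-3p had 12835 and 13618 CPM in Ctrl and 7616, 4928, 8034, 5393, 7257 and 8436 CPM in the treated libraries, all lower than Ctrl (log2 fold change −0.94, SE 0.29, edgeR adjusted p = 0.0726), and it made up most of the fibroblast marker sum in Ctrl. The members did not move together. miR-214-3p had a log2 fold change of 0.55 (95% interval 0.10 to 0.99, edgeR adjusted p = 0.21). miR-214-5p and miR-199a-5p were also positive, at 0.30 and 0.14, and the other members were negative. The miR-29 family, which targets collagen mRNAs with its 3p arms, had the highest list median, 0.73 over 5 members of both arms. This median was the value of the scarce miR-29a-5p (edgeR adjusted p = 0.81). The 3p arms miR-29a-3p, miR-29b-3p and miR-29c-3p were at 0.01, 0.97 and 1.00 and miR-29b-1-5p at −0.28, none called. The abundant miR-29a-3p changed sign with the scaling. The medians of the other lists were 0.33 for the miR-532, miR-500 and miR-660 genes (9 members), 0.08 for miR-99, miR-100, miR-125, miR-10 and miR-196 (11), 0.05 for miR-23, miR-27 and miR-24 (10), −0.03 for miR-28, miR-151a and miR-708 (7), −0.09 for miR-26 and miR-101 (3), −0.22 for miR-130 and miR-148 (6) and −0.28 for miR-221 and miR-222 (4). Those of miR-181 (6) and structural RNA overlap (12) were 0.14 and 0.18.

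**Figure D3:**
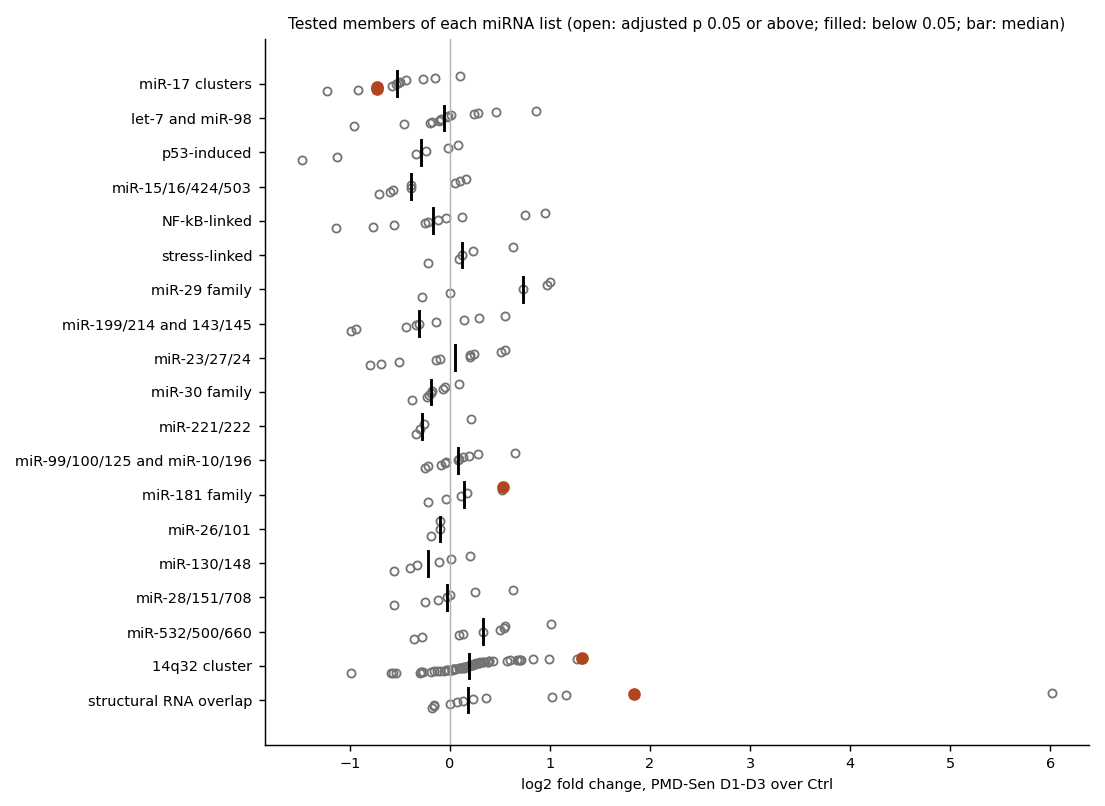
Log2 fold change of PMD-Sen D1 to D3 over Ctrl (horizontal axis) of the tested members of each miRNA list (rows), open where the adjusted p was 0.05 or above and filled where it was below, with a bar at the list's median. The miR-17 clusters lie to the left with a median of −0.53. The miR-29 family has the highest median, 0.73, the value of miR-29a-5p, without a filled point.

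The 5 most abundant miRNAs over the 8 libraries were let-7a-5p, miR-222-3p, miR-100-5p, miR-21-5p and miR-125b-5p. Their log2 fold changes against Ctrl were 0.01, −0.26, −0.22, −0.12 and 0.19, and none was called. let-7a-5p held 119967 and 84732 CPM in Ctrl and 83796 to 132382 CPM in the treated libraries, an overlap, and its sign turned with DESeq2's size factors. CPM is a share of the library, so the total amount of miRNA cannot be read from these values. The absence of a call also does not show equal levels. The 95% interval was −0.32 to 0.34 for let-7a-5p and −0.51 to −0.001 for miR-222-3p.

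Taken by day, calls against Ctrl numbered 8 on D1 (2.22%), 9 on D2 (2.5%) and 1 on D3 (0.278%). On D3, 35 miRNAs (9.72%) had an unadjusted p under 0.05, against 47 (13.1%) on D1 and 44 (12.2%) on D2. At the study's thresholds the counts were 26 (7.22%), 23 (6.39%) and 10 (2.78%). Whether fewer miRNAs differed on D3 than on D1 is not shown by these counts. The single call of D3 was miR-93-5p, which was as low as on the other days (log2 fold change −0.72, −0.68 and −0.79 on D1, D2 and D3, edgeR adjusted p = 0.0133, 0.0184 and 0.0135). Leaving out any 1 of the 4 libraries ended that call on D3, with adjusted p of 0.208 to 0.639.

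The log2 fold changes by day are given as fitted values, since the test for any difference among the 3 days passed for none of the 10 called miRNAs. miR-374b-5p had a log2 fold change of 1.63 on D1, 1.26 on D2 and 0.84 on D3, miR-671-5p −1.17, −0.89 and −0.48, and miR-335-3p −2.75, −1.80 and −0.55. The fitted values of these 3 were farthest from 0 on D1. miR-31-5p was at 0.93, 1.25 and 0.66, miR-337-3p at 1.35, 1.66 and 0.95, and miR-490-3p at −2.45, −2.76 and −1.50, farthest on D2. miR-25-3p, at −0.40, −0.80 and −0.97, and miR-664a-3p, at 1.70, 1.83 and 2.00, were farthest on D3. Most of these single-day calls were lost on leaving out 1 of the 4 libraries compared: between 0 and 5 calls were left on D1 and between 1 and 3 on D2.

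A direct test of D3 against D1 found 1 difference among 360 (0.278%), with 36 (10%) at an unadjusted p under 0.05 and 20 (5.56%) past the study's thresholds. This was miR-1185-1-3p of the 14q32 cluster.
miR-1185-1-3p: aUAUACAGggggagacucuuau
It had 215 and 223 CPM in Ctrl, 91.5 and 75.4 on D1, 300.5 and 198 on D2, and 292 and 231 on D3. Both D1 libraries were below Ctrl, those of D2 were on both sides of it, and those of D3 were above it. D3 was higher than D1 by 1.63 on the log2 scale (SE 0.33, edgeR adjusted p = 0.0121), and a test for any difference among the 3 days gave an adjusted p of 0.0243, also 1 miRNA of 360 (0.278%). The call between D3 and D1 was lost without PMD-Sen D1 replicate 1, D1 replicate 2 or D3 replicate 1 (adjusted p up to 0.169). The 16 tested miRNAs within 10 kb of miR-1185-1-3p had a median log2 fold change of 0.22 for D1 to D3 over Ctrl. For miR-335-3p, D3 was higher than D1 by 2.20 (SE 0.54, edgeR adjusted p = 0.0542). On D2, miR-28-3p, with 872 and 689 CPM against 1207 and 1482 in Ctrl, was also called lower (log2 fold change −0.78, SE 0.22, edgeR adjusted p = 0.049), as was miR-503-5p (−0.69, edgeR adjusted p = 0.0424).

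Against D0, the end of the SDS exposure, D1 to D3 differed in 1 miRNA of 360 (0.278%), with 39 (10.8%) at an unadjusted p under 0.05 and 19 (5.28%) past the study's thresholds. It was miR-1260b, a short sequence with similarity to transfer RNA, with 312 and 267 CPM at D0, 50.7 to 177 CPM on D1 to D3, and 73.0 and 91.5 CPM in Ctrl. D0 stood above all 8 other libraries, and the log2 difference of D1 to D3 from D0 was −1.81 (SE 0.37, edgeR adjusted p = 0.0127). It was lost without either D0 library, at adjusted p of 0.0888 and 0.0785. The D0 libraries held 104436 and 81670 counts, fewer than each of the other 8, and the part of depth in the number of calls was not tested. For miR-93-5p, D0 was already at 2766 and 2876 CPM, and D1 to D3 differed from it by −0.14 (edgeR adjusted p = 0.646). For miR-490-3p, D0 had 36.8 and 22.3 CPM, the difference being −0.29 (edgeR adjusted p = 0.884). Both D0 libraries were below Ctrl for these miRNAs. miR-31-5p had 10918 and 7813 CPM at D0, partly within the Ctrl range, and was 0.60 higher on D1 to D3 (edgeR adjusted p = 0.24).

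Later in the PMD-Sen course, D6 to D16, 104 miRNAs differed from D1 to D3 (28.9%), 47 higher (13.1%) and 57 lower (15.8%), and 37 (10.3%) passed the study's thresholds. Of the 10 miRNAs called against Ctrl, 4 differed. The 10 were picked by the same D1 to D3 libraries that enter this comparison, so a later move back toward Ctrl is favoured by the choice. miR-31-5p had means of 14046, 17563 and 11634 CPM on D1, D2 and D3 and of 10328, 8085 and 5847 CPM on D6, D8 and D16 (n = 2 a day), a log2 change of −0.85 (SE 0.14, edgeR adjusted p = 5.14e-05). Its highest day was D2, and on D16 it was below the Ctrl mean. miR-490-3p went from 21.7, 16.3 and 40.9 CPM to 59.4, 58.2 and 61.5 CPM, a log2 change of 1.28 (SE 0.28, edgeR adjusted p = 0.000882), still below the Ctrl mean of 116 CPM. miR-335-3p went from 34.0, 66.6 and 157 CPM to 127, 222.05 and 151.8 CPM, a log2 change of 1.17 (SE 0.27, edgeR adjusted p = 0.00156). miR-93-5p declined further by 0.26 on the log2 scale (SE 0.09, edgeR adjusted p = 0.0368).

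**Figure D4:**
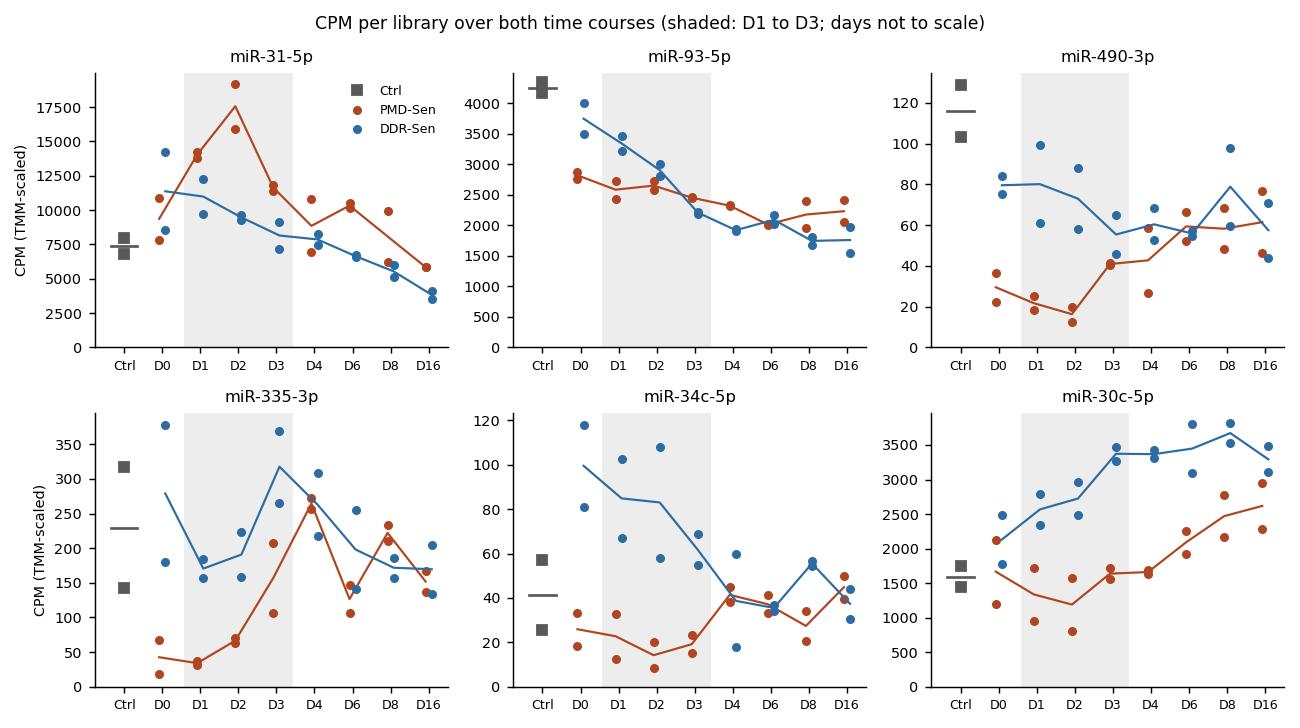
CPM per library (vertical axes, each from 0) in Ctrl and from D0 to D16 (horizontal axis, days not to scale) in PMD-Sen and DDR-Sen for 6 miRNAs, with points for libraries, lines through the means of 2 libraries and D1 to D3 shaded. In PMD-Sen, miR-31-5p has its highest mean on D2, at 17563 CPM, and miR-490-3p its lowest on D2, at 16.3 CPM.

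Some miRNAs that were not called against Ctrl stood higher on the early than on the late days. miR-122-5p, abundant in liver and in blood serum, had 98.8 and 14.3 CPM in Ctrl, 234 and 264 on D1, 105 and 130.3 on D2, and 49.5 and 88.7 on D3, from 30 to 64 counts a treated library. D1 and D2 lay above Ctrl and D3 within its range, and D6 to D16 were lower than D1 to D3 by −2.32 on the log2 scale (SE 0.47, edgeR adjusted p = 0.000416). The epithelial miR-200c-3p had 68.8 and 22.9 CPM in Ctrl and 42.9 to 150.9 CPM on D1 to D3 and was lower on D6 to D16 (log2 change −1.97, SE 0.35, edgeR adjusted p = 0.000104). The epithelial list summed to 54.5 to 163 CPM and the liver and muscle list to 54.5 to 270 CPM in the early libraries, and the part of RNA from other sources in these values was not tested. miR-542-3p rose by 1.18 on the log2 scale (SE 0.36, edgeR adjusted p = 0.0139), a call that was lost without PMD-Sen D6 replicate 1, D8 replicate 1 or D16 replicate 1 (adjusted p up to 0.11). D1 replicate 2 had 0 counts of it, and without D1 replicate 1 the value was 3.69. miR-4454 had 3.66 to 33.6 CPM on D1 to D3 and means of 0, 0 and 4.65 CPM on D6, D8 and D16, and its call was lost without PMD-Sen D1 replicate 2 (adjusted p = 0.0587).

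Groups also moved between the early and the late days. In the 14q32 cluster 24 of 67 members were higher on D6 to D16 than on D1 to D3, and in the miR-30 family 4 of 8 were higher, among them miR-30a-5p (log2 change 0.84, edgeR adjusted p = 4.18e-05) and miR-30c-5p (0.79, edgeR adjusted p = 0.000499). In the list of miR-17 clusters 6 of 12 were lower, with miR-92a-3p at −1.05 (edgeR adjusted p = 1.38e-06) and miR-17-5p at −0.78 (edgeR adjusted p = 0.002). miR-34a-5p was higher by 0.55 (edgeR adjusted p = 0.00852) and miR-155-5p lower by −1.17 (edgeR adjusted p = 1.38e-06). Of the 12 miRNAs that overlap structural RNA 7 were lower on the late days. Each of these shares stands beside a background of 13.1% of tested miRNAs higher and 15.8% lower.

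Set against DDR-Sen D1 to D3, 6 libraries with 6 matched by day, early PMD-Sen differed in 28 miRNAs (7.78%), 6 higher (1.67%) and 22 lower (6.11%). For 15 of the 28 the libraries of the 2 treatments did not overlap, against 5% of all tested miRNAs. The 28 were called on these same libraries and are part of all tested, so this count is no separate support for the calls. The direction of this count depended on the scaling. With DESeq2's size factors 34 passed, 12 higher and 22 lower, and with total counts 72 passed, 54 higher and 18 lower, as the median of all miRNAs then moved by 0.19 on the log2 scale, from 0.07 to 0.26. The values below are relative to the TMM scaling.

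Of the 10 miRNAs called against Ctrl, 3 differed between the treatments. The PMD-Sen libraries that picked the 10 enter this comparison too, so differences away from Ctrl are favoured by the choice. miR-31-5p had 11405 to 19184 CPM in PMD-Sen, with a median of 14046, and 7181 to 12252 CPM in DDR-Sen, with a median of 9469. The ranges overlapped slightly, and the difference was 0.59 on the log2 scale (SE 0.14, edgeR adjusted p = 0.00522), called under all 20 alternative settings. miR-490-3p had 12.6 to 41.3 CPM in PMD-Sen, with a median of 22.6, and 45.8 to 99.4 CPM in DDR-Sen, with a median of 62.9. Here no library overlapped, and the difference was −1.49 (95% interval −2.08 to −0.91, edgeR adjusted p = 0.000418). It was called under 19 of the 20 alternative settings and lost when thinned to the smallest total (edgeR adjusted p = 0.147). miR-335-3p had 31.4 to 208 CPM, median 66.6, against 157 to 369 CPM, median 204, a difference of −1.60 (95% interval −2.16 to −1.05, edgeR adjusted p = 9.81e-05), and its partner arm miR-335-5p differed by −1.18 (edgeR adjusted p = 4.25e-05).

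For the other 7 the difference between the treatments did not pass, and the 2 comparisons with Ctrl share the same 2 control libraries. In DDR-Sen D1 to D3 against Ctrl, where 16 miRNAs (4.44%) were called, miR-664a-3p was at 1.74 (edgeR adjusted p = 0.0397), miR-337-3p at 1.27 (0.00507), miR-374b-5p at 1.23 (0.00507), miR-671-5p at −0.95 (0.00688) and miR-93-5p at −0.61 (0.00507). The values for PMD-Sen were 1.84, 1.32, 1.24, −0.85 and −0.73. miR-181a-5p and miR-25-3p had log2 fold changes of 0.26 and −0.54 in DDR-Sen and 0.53 and −0.72 in PMD-Sen.

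The miRNAs that were lower in early PMD-Sen than in early DDR-Sen included the p53-induced list, with 2 of 6 members called lower, against 6.11% of all tested, and all 6 negative, against 163 negative and 197 positive over all. miR-34c-5p was at 18.7 ± 8.72 CPM in PMD-Sen and 76.5 ± 23.0 CPM in DDR-Sen (SD, n = 6 each), a difference of −1.95 (95% interval −2.64 to −1.26, edgeR adjusted p = 0.000114). miR-34a-5p was at 346 ± 42.4 and 608 ± 115 CPM (SD, n = 6 each), a difference of −0.81 (SE 0.16, edgeR adjusted p = 0.000598). Neither overlapped between the treatments.

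Against the same 6.11% of all tested, 4 of 8 members of the miR-30 family were called lower in PMD-Sen, and all 8 were negative, 7 with total counts. miR-30c-5p was at 1388 ± 403 CPM in PMD-Sen and 2889 ± 438 CPM in DDR-Sen (SD, n = 6 each), a difference of −1.05, and miR-30a-5p, at 8052 to 15245 CPM against 16203 to 25457 CPM, differed by −0.83 (edgeR adjusted p = 7.23e-05). Both sets of libraries stood apart. miR-26a-5p and miR-26b-5p differed by −0.60 and −0.59, 2 of 3 members of their list, and let-7f-5p, let-7g-5p and let-7a-5p by −0.60, −0.50 and −0.40, 3 of 14 members called lower. miR-100-5p, miR-125b-5p and miR-10a-5p, at −0.38, −0.30 and −0.62, were 3 of 11, also beside the 6.11%. The calls of let-7a-5p, let-7g-5p, miR-100-5p and miR-125b-5p were lost with total counts.

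Those higher in early PMD-Sen beside miR-31-5p were miR-4485-3p, miR-431-3p, miR-625-3p, miR-130b-3p and miR-424-3p, by 1.09, 0.94, 0.90, 0.83 and 0.52 on the log2 scale. miR-625-3p had 71.5 to 159 CPM in PMD-Sen and 32.1 to 100.4 CPM in DDR-Sen, and miR-431-3p 65.9 to 163 CPM against 30.8 to 62.9 CPM, the latter without overlap. The call of miR-625-3p was lost without PMD-Sen D2 replicate 1. That of miR-431-3p was lost on leaving out any 1 of 7 libraries of the 12, and that of miR-4485-3p any 1 of 8. Of the 20 alternative settings, miR-130b-3p was called under 14 and miR-424-3p under 18, and both calls were lost without the filter on low counts. miR-486-5p, a red cell miRNA that made up most of the blood marker list, was lower in PMD-Sen, at 268 ± 119 against 542 ± 141 CPM (SD, n = 6 each), by −1.05 (edgeR adjusted p = 0.00139), and the part of RNA from serum in this difference was not tested.

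**Figure D5:**
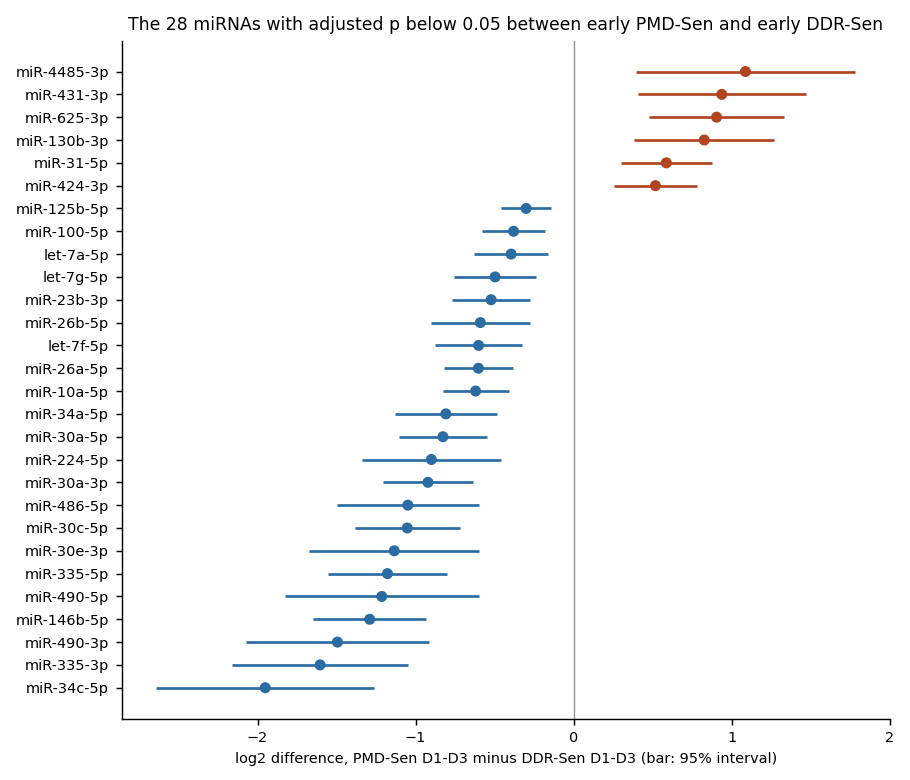
Log2 difference of PMD-Sen D1 to D3 minus DDR-Sen D1 to D3 (horizontal axis) for the 28 called miRNAs (rows), with points for the fitted difference and bars for its 95% interval. The 22 to the left of 0 are led by miR-34c-5p at −1.95, and the 6 to the right include miR-31-5p at 0.59.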

How the data were processed

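Total RNA was made into libraries with the NEXTFLEX Small RNA-Seq Kit v3. According to the study's methods, the authors trimmed the reads, aligned them to GRCh38 and then to miRBase within the exceRpt pipeline. The values deposited by the authors are expected counts of each mature miRNA in each library, without normalization. Reads that match several miRNAs were split, so 1003 of 54288 values are not whole and 18 names join several miRNAs. Every column was matched to a library by its label, and 0 columns were left over.

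Expected counts were rounded to whole numbers and tested with edgeR 4.0.16 in R 4.3.3. TMM normalization, filterByExpr on the 18 conditions and all 36 libraries with 1 coefficient per condition were used, since 2 libraries a group give little information on the spread. The common biological coefficient of variation was 20.9%, with 18 residual and 12 prior degrees of freedom. P-values of the quasi-likelihood test were adjusted by Benjamini-Hochberg over 360 miRNAs, and a miRNA was called at an adjusted p under 0.05. CPM was computed on totals scaled by TMM, with a prior count of 2 where it is given as log2. The procedure was also run on simulated counts, with many more changed miRNAs and with changes larger than most of those called here. That run therefore does not show how the procedure behaves on changes of the size found here. The replicate numbers were not taken to pair the libraries: deviations of same-numbered libraries correlated at −0.0567, −0.032 and −0.0497 between Ctrl and D1, D2 and D3, and at 0.326, 0.157 and 0.0512 between D1 and D2, D1 and D3, and D2 and D3.

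miRNAs were named by a rule: those called with all 6 treated libraries beyond both Ctrl libraries, filled to 8 in each direction by unadjusted p, then up to 3 in each direction of the other comparisons, the 2 largest changes and the most abundant member of each list, the 5 most abundant miRNAs and those the study names. All called miRNAs were also described, and other members of lists, seeds or clusters were named after their values were seen. The members and lists were chosen with earlier results of these data known. Alternatives were DESeq2 1.42.0, scaling by DESeq2's size factors or by totals, filtering not at all or at a mean of 10 counts, the study's thresholds, thinning to 81670 counts, a fit of the compared conditions alone, a block for the replicate number, and the omission of each library in turn. Messenger RNA and replicative senescence were not analysed here. Of the tests on DDR-Sen without PMD-Sen, only D1 to D3 against Ctrl was run, for comparison. Hairpin positions came from RefSeq and host genes from GENCODE, both on GRCh38.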

Additional observations from a re-analysis of the deposited data

Results flagged for a closer look

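The log2 CPM of miR-1246 in the 6 PMD-Sen libraries of D1 to D3 held 1 library, D3 replicate 2 with 1 count, that was far from the others: the gap to its nearest neighbour was 0.824 of the whole range, above Dixon's critical value of 0.625 for 6 values. It was 1 of 17 values tested in this way, miRNAs and the total count, and chance gives about 1 such case in 20.

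Early PMD-Sen and early DDR-Sen differed by the test of the difference itself for 28 miRNAs (edgeR's quasi-likelihood test, Benjamini-Hochberg adjustment). On the log2 scale, PMD-Sen minus DDR-Sen, the positive values were 1.09 for miR-4485-3p, 0.937 for miR-431-3p, 0.904 for miR-625-3p, 0.826 for miR-130b-3p, 0.586 for miR-31-5p and 0.518 for miR-424-3p. The negative values of more than 1 in size were −1.95 for miR-34c-5p, −1.6 for miR-335-3p, −1.49 for miR-490-3p, −1.29 for miR-146b-5p, −1.21 for miR-490-5p, −1.18 for miR-335-5p, −1.13 for miR-30e-3p, −1.05 for miR-30c-5p and −1.05 for miR-486-5p. The others were −0.922 for miR-30a-3p, −0.901 for miR-224-5p, −0.827 for miR-30a-5p, −0.809 for miR-34a-5p, −0.62 for miR-10a-5p, −0.602 for miR-26a-5p, −0.601 for let-7f-5p, −0.59 for miR-26b-5p, −0.522 for miR-23b-3p, −0.497 for let-7g-5p, −0.396 for let-7a-5p, −0.38 for miR-100-5p and −0.301 for miR-125b-5p.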

How the results depend on the processing

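Of the 10 miRNAs called in PMD-Sen D1 to D3 against Ctrl, miR-93-5p and miR-490-3p were called under all 16 alternatives, miR-31-5p, miR-374b-5p, miR-337-3p and miR-335-3p under 14, miR-671-5p under 11, miR-664a-3p under 10, miR-25-3p under 6 and miR-181a-5p under 3, and 0 of the 10 changed sign. Every comparison with Ctrl rests on 2 Ctrl libraries, and the lone library left by an omission was assumed to vary like the other groups. Thinned to the smallest total, calls numbered 6 for D1 to D3 against Ctrl, 2 for D3 against Ctrl, 0 for D3 against D1, 0 for D1 to D3 against D0 and 69 for D6 to D16 against D1 to D3. With only the conditions compared they were 2 for D1, 15 for D3, 0 for D3 against D1 and 0 against D0. At the study's thresholds they were 26 for D1, 23 for D2, 10 for D3, 20 for D3 against D1, 19 against D0 and 37 for the late days. With total counts they were 3 for D3 against D1, 2 against D0 and 72 against DDR-Sen, and on D1 the split was 2 higher and 6 lower, in place of 3 and 5. Without the filter they were 0 for D3, 3 for D3 against D1 and 2 against D0, with a mean of at least 10 counts 3 and 2 for the last pair, and with the DESeq2 Wald test 2 for D3 and 2 for D3 against D1. Leaving out 1 library gave 3 to 10 calls for D1 to D3 against Ctrl (5 without Ctrl replicate 1, 3 without Ctrl replicate 2), 0 to 5 for D1, 1 to 3 for D2, 0 to 0 for D3, 0 to 2 for D3 against D1, 0 to 2 against D0, 24 to 59 against DDR-Sen (59 without PMD-Sen D1 replicate 1, 46 without D2 replicate 1) and 72 to 130 for the late days. With the replicate number as a block, which the labels and the correlations of all same-numbered libraries did not establish, the calls were 11, 8, 9, 1, 1, 1, 30 and 105 in the order of the comparisons above, D1 to D3 first and the late days last. Of the other counts of calls, 80 were within 1.5 times the reported one. The causes were not tested, beyond the fewer counts or libraries that thinning and omission leave.

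Changes of sign arose in miRNAs that were not called. let-7a-5p, at 0.01, was at −0.0432 with DESeq2's size factors, −0.0149 without the filter, −0.0267 with a mean of at least 10 counts, −0.0283 with only the conditions compared and −0.0431 with DESeq2. miR-29a-3p, at 0.01, was at −0.0432, −0.0203, −0.0306, −0.0217 and −0.0432 in the same order, −0.000863 with total counts and −0.00419 with the block. miR-30b-5p, with few counts, went from −0.22 to 0.999 when thinned. On leaving out 1 library at a time the values ran from −0.244 to 0.207 for let-7a-5p, −0.123 to 0.1002 for miR-29a-3p, −0.0434 to 0.188 for miR-92a-3p, −0.108 to 0.287 for miR-320a, −0.2298 to 0.0832 for miR-30e-5p, −0.366 to 0.0542 for miR-101-3p, −0.126 to 0.0127 for miR-151a-5p|miR-151b, −0.159 to 0.0424 for miR-34a-5p, −0.0733 to 1.45 for miR-200c-3p, −0.316 to 0.0327 for miR-21-5p, −0.0134 to 0.197 for miR-409-3p, −2.82 to 4.70 for miR-34b-3p (the highest without Ctrl replicate 2) and −1.27 to 1.28 for miR-660-5p (the lowest without PMD-Sen D1 replicate 1).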
